A study of Homo sapiens with 12 samples.

Results

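The genes described here encode the proteasome, the protease that degrades ubiquitin-tagged proteins. They were chosen by symbol among protein-coding genes: PSMA, PSMB, PSMC, PSMD, PSME or PSMG followed by a number, and POMP. This gave 48 genes among 58037 identifiers in the counts, of which 56948 carried a symbol. RNA was sequenced from 2 prostate cancer lines with a doxycycline (DOX)-inducible shRNA against MUC1. DU-145/tet-MUC1shRNA cells come from a prostate cancer metastasis, and LNCaP-AI/tet-MUC1shRNA cells were derived from C4-2B cells, themselves from LNCaP, by long culture without androgens. In each line 3 samples received vehicle and 3 received DOX (500 ng/ml over 7 days). The sample labels call these groups control shRNA and MUC1 shRNA, and all 12 samples carry the same inducible construct. Control-shRNA cells given DOX are not analysed here, so DOX itself and loss of MUC1 cannot be told apart.

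The core particle of the proteasome (20S) is a barrel of stacked rings. Alpha subunits, encoded by the PSMA genes, form the outer rings, and beta subunits, encoded by the PSMB genes, form the inner rings. Some beta subunits cut peptide bonds: PSMB6 carries the caspase-like, PSMB7 the trypsin-like and PSMB5 the chymotrypsin-like activity. In cells exposed to interferon, PSMB9, PSMB10 and PSMB8 take their places to form the immunoproteasome. The regulatory cap (19S) holds a ring of ATPases, the PSMC genes, which unfold substrates, and non-ATPase subunits, most PSMD genes, which bind and remove ubiquitin. The PSME genes encode other activators of the core particle, and PSMG1 to PSMG4 and POMP help to assemble it. When proteasomes are blocked, the transcription factor NRF1, encoded by NFE2L1, raises these genes together through antioxidant response elements (ARE), in a pair with a small MAF protein.

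Counts per sample ran from 10423437 to 13544153 in DU-145 cells and from 16569613 to 26961777 in LNCaP-AI cells. MUC1 counts were 74, 60 and 59 with vehicle and 3, 3 and 3 with DOX in DU-145 cells. In LNCaP-AI cells they were 36, 25 and 52 with vehicle and 8, 6 and 3 with DOX. All 4 prostate epithelial markers examined (EPCAM, KRT8, KRT18 and CDH1) were called higher with DOX in DU-145 cells, with a summed level of 832 to 888 CPM with vehicle and 1884 to 1958 with DOX. CPM are a gene's counts divided by the normalized library size and scaled to a common total. Whether this change of markers bears on the proteasome genes was not tested. Of 13 markers of leukocytes, endothelial cells and fibroblasts, 1 to 3 had more than 3 counts in a DU-145 sample and 4 to 7 in an LNCaP-AI sample. CD3E was at 0 in every sample, and the summed level was at most 38.4 CPM. Not all were absent: in LNCaP-AI cells COL1A1 had 405, 309 and 661 counts with vehicle and 511, 360 and 332 with DOX. VWF and PDGFRB also had more than 3 counts in every LNCaP-AI sample.

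The LNCaP-AI samples did not separate first by treatment. The first principal component held 82.5% of their variance and put vehicle 1 on the side of DOX 2 and DOX 3, and DOX 1 on that of vehicle 2 and vehicle 3. Of 6 genes taken as markers of DU-145 cells, 6 had more than 3 counts in each of vehicle 2, vehicle 3 and DOX 1, where they summed to 638 to 752 CPM. In vehicle 1, DOX 2 and DOX 3, 3 or 4 of them did, with sums of 45.7, 290 and 301 CPM, against 2678 to 3106 CPM in DU-145 samples. CD44 had 0, 1 and 3 counts in vehicle 1, DOX 2 and DOX 3. The endothelial marker PECAM1 had 0, 0 and 1 counts in these samples and 36, 72 and 62 in vehicle 2, vehicle 3 and DOX 1. VWF and PDGFRB did not separate by side. All 8 genes taken as markers of LNCaP cells were above 3 counts in every LNCaP-AI sample, with sums of 2459 to 3832 CPM with vehicle and 3851 to 5353 CPM with DOX. The part of this division in the results below was not tested. The LNCaP-AI medians and the values of PSMB4 and PSMB5 are therefore also given within each side. The fold changes of the other genes are given over all LNCaP-AI samples only.

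The promoter windows of 4 genes are shown as examples, chosen from their changes with DOX. PSMB5 fell in both lines, and PSMC4, PSMB4 and PSMD3 are among the 7 genes called higher in both. Each window holds 250 bases before and 50 bases after a transcription start in RefSeq (GRCh38.p14), written 5′ to 3′ on the gene's own strand. Capitals mark matches, on either strand, to any of 6 short motifs: the ARE core TGACNNNGC, the ETS core CCGGAA, the CCAAT box, the E-box CACGTG, the interferon-linked GAAANNGAA and the palindrome TTCNNNGAA.
PSMB5 (chr14:23034851-23035150, minus strand): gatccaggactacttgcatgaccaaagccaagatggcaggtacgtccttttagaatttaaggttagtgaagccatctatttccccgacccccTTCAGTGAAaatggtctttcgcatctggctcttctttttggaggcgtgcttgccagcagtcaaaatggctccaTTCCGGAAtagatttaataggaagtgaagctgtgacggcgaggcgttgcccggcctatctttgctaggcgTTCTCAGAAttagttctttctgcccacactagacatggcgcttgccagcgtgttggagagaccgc
PSMC4 (chr19:39970915-39971214, plus strand): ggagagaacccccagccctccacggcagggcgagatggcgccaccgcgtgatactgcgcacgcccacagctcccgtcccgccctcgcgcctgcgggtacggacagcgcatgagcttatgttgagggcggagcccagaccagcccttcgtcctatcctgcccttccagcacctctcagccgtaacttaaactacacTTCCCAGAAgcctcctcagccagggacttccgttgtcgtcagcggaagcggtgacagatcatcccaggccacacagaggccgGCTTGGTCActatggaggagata
PSMB4 (chr1:151399323-151399622, plus strand): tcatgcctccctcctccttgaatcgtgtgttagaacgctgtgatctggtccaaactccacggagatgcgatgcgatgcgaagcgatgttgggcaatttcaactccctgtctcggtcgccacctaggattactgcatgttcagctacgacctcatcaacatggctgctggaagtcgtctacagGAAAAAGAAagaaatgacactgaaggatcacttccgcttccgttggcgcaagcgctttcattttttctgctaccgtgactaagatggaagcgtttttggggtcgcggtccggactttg
PSMD3 (chr17:39980557-39980856, plus strand): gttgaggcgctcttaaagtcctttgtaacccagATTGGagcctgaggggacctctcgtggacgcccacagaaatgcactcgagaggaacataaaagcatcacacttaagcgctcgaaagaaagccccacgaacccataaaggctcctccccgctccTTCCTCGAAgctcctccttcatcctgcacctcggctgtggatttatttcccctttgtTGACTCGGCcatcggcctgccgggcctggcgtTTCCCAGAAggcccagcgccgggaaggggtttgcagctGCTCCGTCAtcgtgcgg
The PSMB5 window holds the ETS core on both strands, in overlapping letters, and no ARE core, and its other RefSeq window, not shown, holds a CCAAT box. PSMC4 has 1 ARE core just after its start and PSMD3 has 2, whereas PSMB4 matched the interferon-linked motif alone. Of the other genes called higher in both lines, POMP, PSMD8 and PSMD13 had the ETS core and no ARE core. PSMD4 had no window. Windows were found for 42 of the 48 genes, 50 windows in all. The ARE core was in 15 of these 50 (30%), against 13.3% of all 35116 windows. The ETS core was in 22 (44%), against 17.2%. The CCAAT box was in 40% against 34.6% and the E-box in 6% against 7.26%. GAAANNGAA was in 18% against 8.11%, and TTCNNNGAA in 16% against 7.66%. In the 32 windows of the constitutive subunits of core and cap the ARE core was in 7 (21.9%) and GAAANNGAA in 3 (9.38%), nearer to all windows, with the ETS core in 46.9%, the CCAAT box in 46.9%, the E-box in 3.13% and TTCNNNGAA in 15.6%. No window held overlapping matches to different motifs. Such matches are letters in a window, not measured binding sites.

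With DOX, nearly all constitutive subunits of the core and cap rose together in DU-145 cells, with PSMB5 falling. Of the 48 genes, 46 had enough counts to be tested, and PSMA8 and PSMB11, known for testis and thymus, had 0 counts in all 12 samples. By edgeR's quasi-likelihood test 33 of 46 were called higher, where 26.3% of all 13644 genes tested were, and 2 were called lower, where 25.3% of all genes were. Their median log2 fold change was 0.39, against 0.00 over all genes. The 30 constitutive subunits of the core and cap other than PSMB5 had 29 called higher, with a median of 0.58, a 1.49-fold change. Their log2 fold changes had an SD of 0.30, against 0.57 over all genes. PSMB5 was set apart because it fell, and with it the SD was 0.45. Over all 46 genes the SD was 0.48. The exception, PSMA1, had a log2 fold change of -0.01 (SE 0.09, adjusted p = 0.931). In these bulk samples more RNA per cell and a different make-up of cells cannot be told apart.

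**Figure D1:**
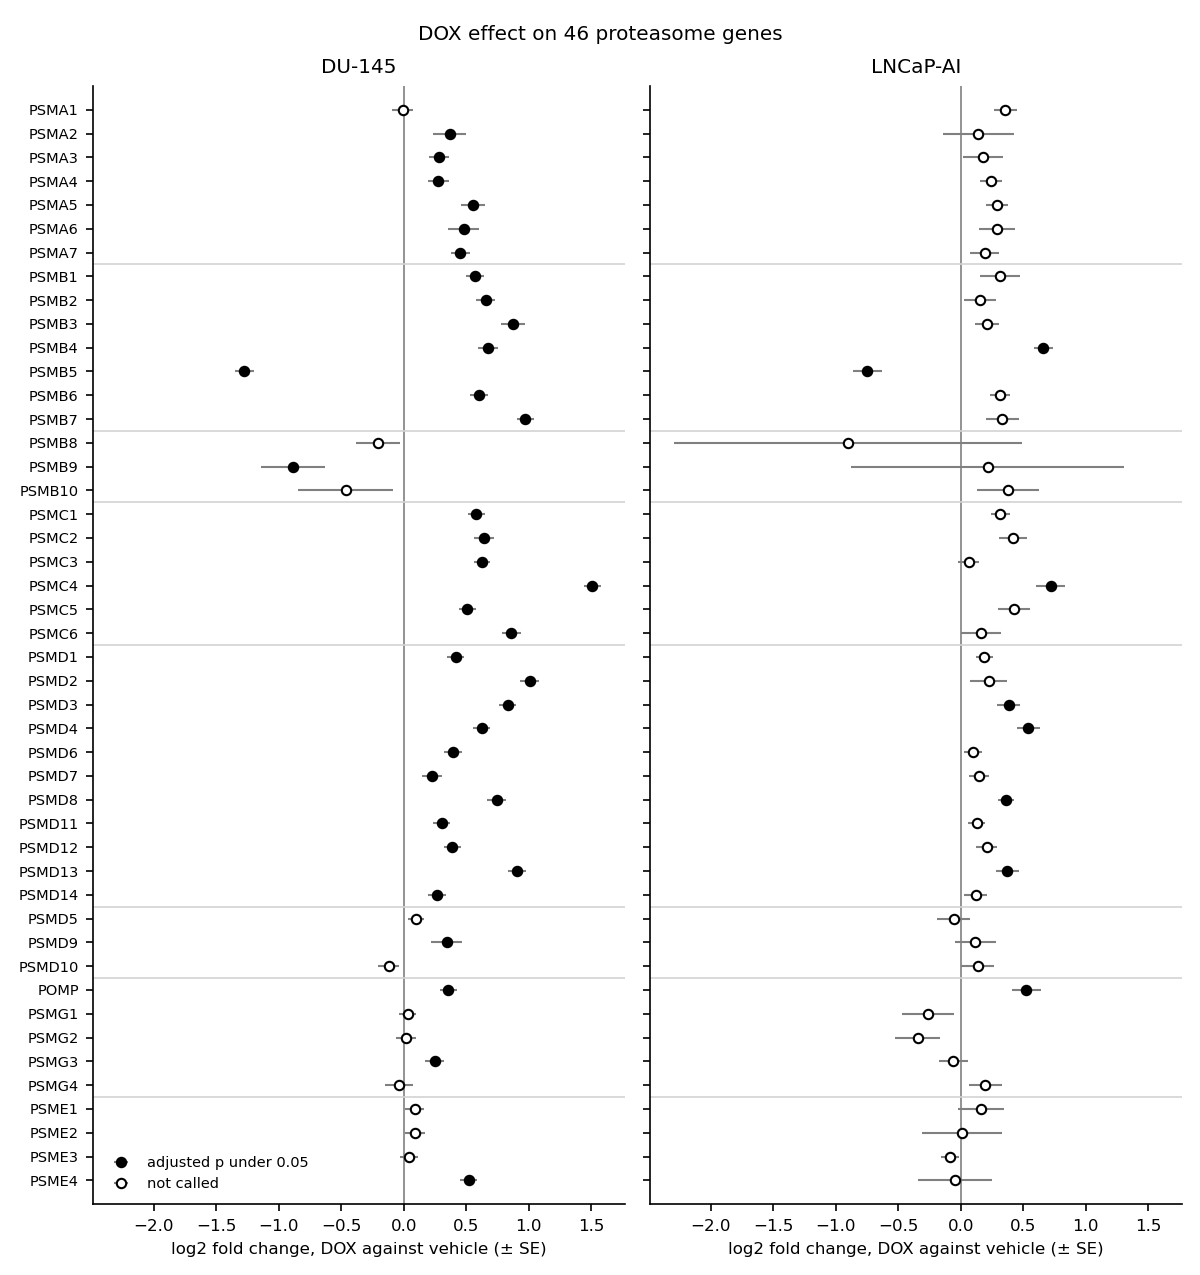
Log2 fold change with DOX against vehicle, on the x axis with its standard error, for the 46 proteasome genes tested in DU-145 (left) and LNCaP-AI cells (right), with n = 3 per group. Filled points passed an adjusted p of 0.05 and grey lines part the groups of subunits; in DU-145 cells 33 genes lie right of 0 as filled points, and PSMB5 is the filled point at -1.28.

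The rise ran through every part of the constitutive particle. All 6 ATPases of the cap and all 11 of its non-ATPase subunits were called higher, with median log2 fold changes of 0.63 and 0.42. Of the alpha ring 6 of 7 tested genes were called, with a median of 0.37, and of the 7 constitutive beta genes 6 were called higher and PSMB5 lower. In every vehicle sample at most 4 of the 30 subunits lay above their mean over the 6 samples, and in every DOX sample at least 28 did. The 48 genes together took 0.781%, 0.835% and 0.767% of all counts with vehicle and 1.14%, 1.10% and 1.13% with DOX.

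PSMC4, an ATPase of the cap, rose most. Its levels were 69.9, 67.8 and 65.95 CPM in the vehicle samples and 190.5, 196 and 194 CPM with DOX. The groups were far apart relative to their spread, with a log2 fold change of 1.51 (SE 0.07, adjusted p = 2.69e-12, edgeR). Of 13644 genes, 136 (0.997%) had a log2 fold change as high or higher, PSMC4 included.
PSMD2, a scaffold of the cap that docks ubiquitin shuttle proteins, had 666, 671 and 627 CPM with vehicle and 1394, 1286 and 1269 CPM with DOX. PSMD13, of the lid of the cap, had 125, 147.5 and 133 CPM with vehicle and 259, 240.5 and 261 CPM with DOX. PSMD3, also of the lid, had 229, 227 and 209 CPM with vehicle and 411.5, 388 and 384 CPM with DOX. Log2 fold changes of these genes were 1.01 (SE 0.08), 0.91 (SE 0.07) and 0.83 (SE 0.07), and no DOX sample overlapped a vehicle sample.
PSMB7, the trypsin-like subunit, had 216, 242 and 217 CPM with vehicle and 454, 427 and 445 CPM with DOX, a log2 fold change of 0.97 (SE 0.07, adjusted p = 1.62e-09, edgeR). PSMB6, the caspase-like subunit, had 157, 167 and 144.6 CPM with vehicle and 236, 237 and 238 CPM with DOX, a log2 fold change of 0.60 (SE 0.07, adjusted p = 6.99e-07, edgeR).

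PSMB5, the chymotrypsin-like subunit and the target of bortezomib, went the other way. The gene lies on chromosome 14 from 23016543 to 23035230 (GRCh38, minus strand), and no annotated exon of another gene overlaps its exons. Its levels were 91.6, 89.8 and 84.6 CPM with vehicle and 38.3, 36.4 and 35.0 CPM with DOX, from raw counts of 1196, 941 and 1061 against 428, 492 and 415. The highest DOX sample was thus well under the lowest vehicle sample, with a log2 fold change of -1.28 (SE 0.07, adjusted p = 8.38e-11, edgeR), or 0.413 of the vehicle level. Among the 13644 genes, 309 (2.26%) fell as much or more. PSMB5 took 1.20%, 1.08% and 1.11% of the counts of the 48 genes with vehicle and 0.324%, 0.329% and 0.306% with DOX.
Scaling does not enter a ratio within a sample. The ratio below was formed after PSMB5 was seen to fall, so it describes that fall and is no separate test. Per kb of transcript, PSMB5 stood at 0.481, 0.408 and 0.449 of the geometric mean of the other 6 constitutive beta subunits with vehicle, and at 0.115, 0.115 and 0.104 with DOX. The log2 ratio thus differed by -2.005, and the groups did not overlap (exact permutation test over samples, two-sided, p = 0.1, the smallest that 3 against 3 samples allow, and 0.143 adjusted over 10 ratios).

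**Figure D2:**
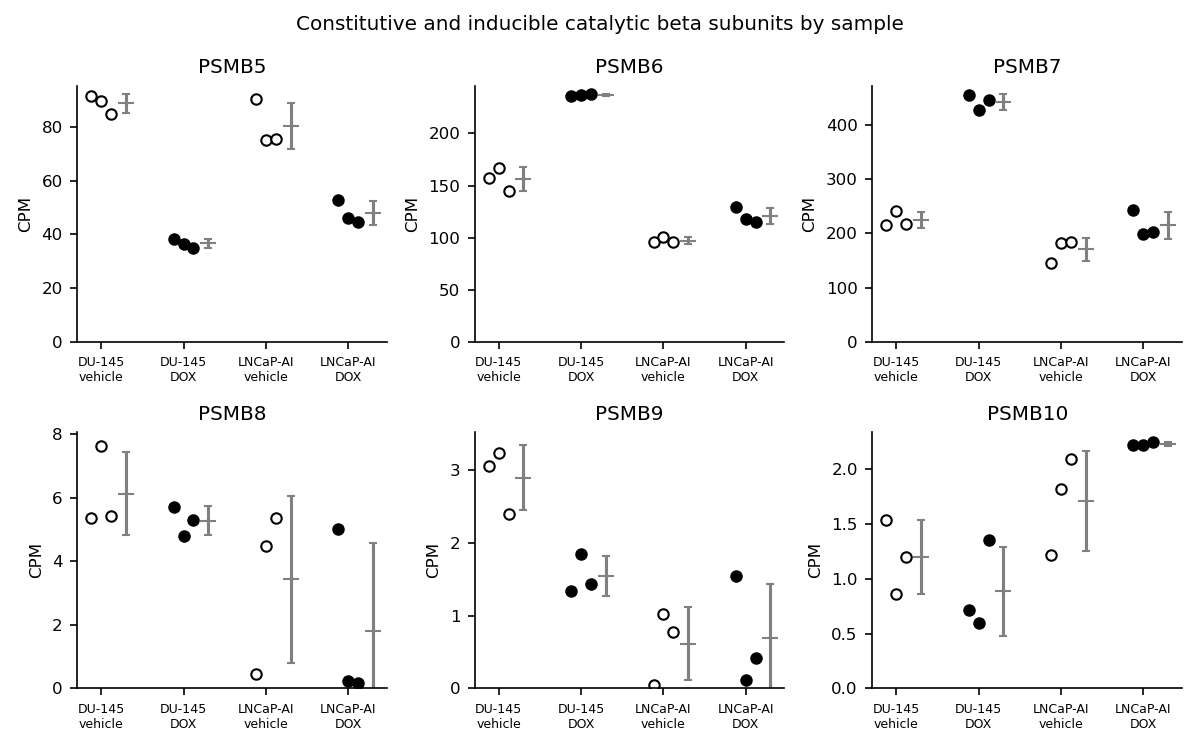
Levels in TMM-normalized CPM (y axis from 0, each panel on its own scale) of the catalytic beta subunits PSMB5, PSMB6 and PSMB7 and their inducible counterparts PSMB8, PSMB9 and PSMB10 in each sample. Open circles are vehicle samples, filled circles DOX samples, and bars give mean ± SD (n = 3, drawn down to 0 at most); in DU-145 cells PSMB5 drops from 84.6 or more to 38.3 or less while PSMB6 and PSMB7 rise.

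The inducible subunits were sparse, and none of the 3 tested was called higher with DOX in DU-145 cells. PSMB9 had 3.07, 3.24 and 2.39 CPM with vehicle and 1.34, 1.85 and 1.44 CPM with DOX, a log2 fold change of -0.89 (SE 0.26, adjusted p = 0.00713, edgeR). The raw counts behind it were 40, 34 and 30 against 15, 25 and 17, and the call was lost in a single fit of all 12 samples (adjusted p = 0.371). Part of the gene's exons is shared with PSMB8-AS1 on the same strand. PSMB10 shares 640 exon bases with another annotated gene on its strand. How reads in such stretches were counted is not given in the sources used here, so its low counts are uncertain.
PSMB8 had 5.36, 7.63 and 5.42 CPM with vehicle and 5.73, 4.81 and 5.32 CPM with DOX (adjusted p = 0.346, edgeR), and the groups overlapped. PSMB10 had 1.53, 0.859 and 1.20 CPM with vehicle and 0.716, 0.593 and 1.35 CPM with DOX (adjusted p = 0.326, edgeR), again with overlap. The ratio of PSMB8 to PSMB5 per kb went from 0.0544, 0.0790 and 0.0595 with vehicle to 0.139, 0.123 and 0.141 with DOX. PSMB9 to PSMB6 moved the other way, from 0.0158, 0.0157 and 0.0134 to 0.00460, 0.00633 and 0.00488. Both ratios, and that of PSMB10 to PSMB7, separated the groups completely (exact permutation test, two-sided, p = 0.1 and adjusted p = 0.143 for each). These ratios carry the fall of PSMB5 and the rises of PSMB6 and PSMB7 given above. They are thus no separate support for a change of the inducible subunits. PSMB10 rested on 20, 9 and 15 counts with vehicle and 8, 8 and 16 with DOX.
Of 12 partners of the immunoproteasome in antigen processing, 10 were tested in DU-145 cells, of which 2 were called higher and 3 lower, beside 26.3% and 25.3% of all genes. ERAP2, which trims peptides, fell by 0.41 on the log2 scale (SE 0.08). B2M, the light chain of MHC class I, rose by 0.33 (SE 0.09). TAP2 was listed at 0 in all 12 samples.

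In DU-145 cells 1 of 4 activators, 2 of 5 assembly factors of the core and 1 of 3 chaperones of the cap were called higher, with median log2 fold changes of 0.09, 0.03 and 0.10. Of all genes tested, 26.3% were called higher. PSME4, the nuclear activator PA200, had 264, 262 and 243 CPM with vehicle and 382, 352 and 369 CPM with DOX in DU-145 cells, a log2 fold change of 0.52 (SE 0.07, adjusted p = 3.91e-06, edgeR). It was the only activator called. PSME1 had 45.8, 51.04 and 44.98 CPM with vehicle and 50.6, 49.6 and 50.3 CPM with DOX, and PSME2, its partner, had 47.3, 56.7 and 49.0 against 50.9, 53.9 and 57.5 CPM. PSME3 had 411, 432 and 374 against 442, 411 and 398 CPM. For these 3 genes the groups overlapped, with log2 fold changes of 0.04 to 0.09.
POMP, which fits the beta subunits into the ring, had 145, 155.5 and 157 CPM with vehicle and 204.5, 183 and 197 CPM with DOX (log2 fold change 0.35, SE 0.07, adjusted p = 0.000264, edgeR). PSMG3 had 42.8, 46.75 and 43.6 CPM with vehicle and 52.3, 50.4 and 55.1 CPM with DOX (0.25, SE 0.08, adjusted p = 0.0108, edgeR). POMP and PSMG3 were the assembly factors of the core called higher. The PSMG3 call was not kept in every fit that left out a sample (adjusted p up to 0.0754, edgeR).
PSMG1 had 107, 103 and 110 CPM with vehicle and 115, 105 and 108 CPM with DOX. PSMG2 had 92.5, 115 and 96.6 against 106, 96.0 and 105 CPM, and PSMG4 15.4, 18.98 and 17.6 against 15.3, 16.7 and 18.4 CPM. The groups overlapped for all of PSMG1, PSMG2 and PSMG4. Of the chaperones of the cap, PSMD9 was called higher (0.34, SE 0.13), with PSMD5 at 0.10 (SE 0.06) and PSMD10 at -0.12 (SE 0.08). PSMD9 also shares exon sequence with another annotated gene on its strand.

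In LNCaP-AI cells the constitutive subunits lay on the same side of 0, with a smaller median. By edgeR's test 7 of 46 genes were called higher, where 7.22% of all 16030 genes tested were: POMP, PSMB4, PSMC4, PSMD13, PSMD3, PSMD4 and PSMD8. PSMB5 alone was called lower, where 5.52% of all genes were. All 7 were also among the 33 of 46 called higher in DU-145 cells. The share of all genes called higher in both lines was not computed. The median log2 fold change of the 46 genes was 0.19, against -0.05 over all genes. The 30 constitutive subunits other than PSMB5 were all above 0, from 0.06 to 0.72, with a median of 0.26. Within vehicle 1, DOX 2 and DOX 3 their median was 0.29, and within vehicle 2, vehicle 3 and DOX 1 it was 0.32. Of the 30, 29 were above 0 on both sides, PSMC3 being the exception. The same share over all genes was not computed. Vehicle 1 and DOX 1 each stand alone for an arm on their side, so all genes of a side share that sample's deviation. The 48 genes took 0.613%, 0.681% and 0.634% of all counts with vehicle and 0.773%, 0.731% and 0.732% with DOX.
The number of calls depended on single libraries and on the model. It was 0 without DOX 2 and 0 without DOX 3, 3 without vehicle 2 and 2 without vehicle 3 (13, 13, 16 and 12 genes higher at an unadjusted p under 0.05), and 24 with the side of the first component as a covariate, a side taken from the same counts. DESeq2 called 14.

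PSMB4, a non-catalytic beta subunit, gave the smallest adjusted p among the genes that rose in LNCaP-AI cells. It had 207, 212.5 and 189 CPM with vehicle and 312, 324 and 326 CPM with DOX, a log2 fold change of 0.66 (SE 0.08, adjusted p = 0.0123, edgeR). The within-side values were 0.65 and 0.64.
PSMC4 had 67.2, 52.35 and 56.3 CPM with vehicle and 90.75, 100.004 and 98.8 CPM with DOX (0.72, SE 0.12, adjusted p = 0.0186, edgeR). Of 16030 genes, 1227 (7.65%) had a log2 fold change as high or higher, PSMC4 included. PSMD4, a ubiquitin receptor of the cap, had 166, 143.5 and 138 CPM with vehicle and 208, 220 and 223 CPM with DOX (0.54, SE 0.09, adjusted p = 0.0217, edgeR). PSMD8, of the lid, had 167.5, 174 and 170.2 CPM with vehicle and 226, 217 and 215 CPM with DOX (0.36, SE 0.07, adjusted p = 0.0235, edgeR). No DOX sample overlapped a vehicle sample in any of these genes.
POMP had 241, 227 and 184 CPM with vehicle and 299.9, 313 and 324 CPM with DOX, a log2 fold change of 0.52 (SE 0.12, adjusted p = 0.038, edgeR) and the only called assembly factor in this line. PSMD13 had 117, 140 and 120 CPM with vehicle and 166, 160 and 162 CPM with DOX, and PSMD3 had 256, 222 and 226 against 285, 316 and 318 CPM. PSMD13 (adjusted p = 0.0494) and PSMD3 (adjusted p = 0.045) stood close to the threshold in edgeR's test.

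PSMB5 had 90.3, 75.2 and 75.5 CPM with vehicle and 52.9, 46.04 and 44.6 CPM with DOX in LNCaP-AI cells. The groups did not overlap, with a log2 fold change of -0.75 (SE 0.12, adjusted p = 0.0178, edgeR). Within vehicle 1, DOX 2 and DOX 3 it was -0.99, and within vehicle 2, vehicle 3 and DOX 1 it was -0.51. Among the 16030 genes tested in this line, 1989 (12.4%) fell as much or more. The call was lost without DOX 2 and without DOX 3, where the adjusted p rose to at most 0.102 in edgeR's test.
Relative to the other constitutive beta subunits per kb, PSMB5 went from 0.691, 0.482 and 0.529 with vehicle to 0.272, 0.266 and 0.257 with DOX, a log2 difference of -1.08 (exact permutation test, two-sided, p = 0.1, adjusted p = 0.143). Thus the ratio of PSMB5 to its ring neighbours separated vehicle from DOX samples completely in both lines. As PSMB5 was picked for its fall, this restates the levels above and adds no support. PSMB6 had 95.6, 101 and 95.4 CPM with vehicle and 129, 118 and 115 CPM with DOX, just short of the threshold (0.31, SE 0.08, adjusted p = 0.0517, edgeR). PSMB7 had 145, 183 and 183 CPM with vehicle and 243, 198 and 203 CPM with DOX (0.33, SE 0.13, adjusted p = 0.147, edgeR).

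**Figure D3:**
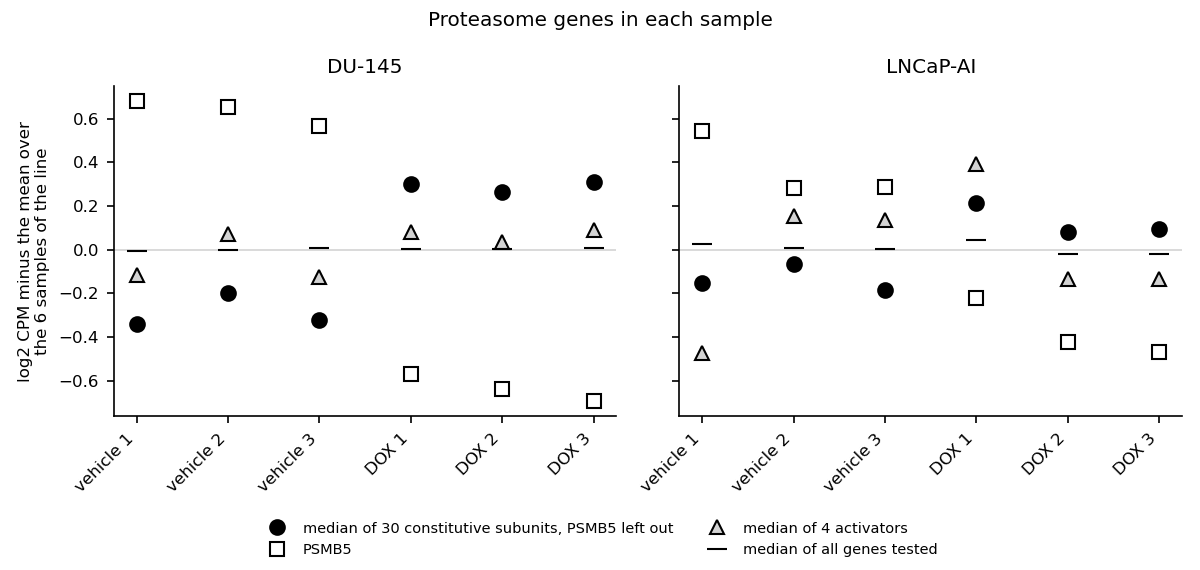
Each sample's log2 CPM minus the mean over the 6 samples of its line (y axis), as the median of the 30 constitutive subunits other than PSMB5 (circles), PSMB5 (squares), the median of the 4 activators PSME1 to PSME4 (triangles) and the median of all genes tested (dashes). The circles lie below 0 in all vehicle samples and above 0 in all DOX samples of both lines, with the squares the other way round; in LNCaP-AI cells the triangles of vehicle 1, DOX 2 and DOX 3 lie below 0.

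Several inducible subunits, activators and assembly factors of LNCaP-AI cells (PSMB8, PSMB9, PSME1, PSME2, PSME4 and PSMG1 to PSMG3) separated completely by the division of the samples and not by treatment. PSMG3 did so only narrowly. The division was not particular to these groups. The constitutive subunit PSMB2 and the cap chaperone PSMD5 also separated by it, and PSMD10 did with the sides the other way round. The division was itself read from the first principal component of these samples, which held 82.5% of their variance. How many of all genes tested separated by this division was not computed. The separation therefore cannot be read as a trait of the genes named here. PSMB8 had 0.437, 4.49 and 5.37 CPM with vehicle and 5.01, 0.240 and 0.177 CPM with DOX, so vehicle 1 lay with DOX 2 and DOX 3 and DOX 1 with the other vehicle samples. PSMB9 had 0.0485, 1.02 and 0.773 CPM with vehicle and 1.54, 0.120 and 0.414 CPM with DOX, with the same division. PSME2 had 23.2, 41.7 and 46.5 CPM with vehicle and 50.3, 30.2 and 31.5 CPM with DOX, and PSME4 146.5, 284 and 257 against 289.8, 191.5 and 182 CPM. None of PSMB8, PSMB9, PSME2 and PSME4 was called, with adjusted p of 0.694, 0.903, 0.988 and 0.917 from edgeR's test.
PSMB10 did not share the division: it had 1.21, 1.82 and 2.10 CPM with vehicle and 2.22, 2.22 and 2.25 CPM with DOX (adjusted p = 0.355, edgeR). PSME3 did not share it either, with 344, 334 and 326 against 331, 307 and 307 CPM. PSME1 did, with 37.7, 52.5 and 50.5 CPM with vehicle and 63.9, 47.1 and 46.4 CPM with DOX. For PSMB8 to PSMB5, PSMB9 to PSMB6 and PSMB10 to PSMB7 the vehicle and DOX samples of this line overlapped (exact permutation p of 0.9, 1 and 0.7).
Among assembly factors, PSMG1 had 55.7, 80.8 and 69.2 CPM with vehicle and 71.9, 47.0 and 52.3 CPM with DOX. PSMG2 had 70.7, 97.5 and 79.3 against 78.9, 55.0 and 61.0 CPM. PSMG3 had 40.3, 40.5 and 47.7 against 46.1, 38.60 and 38.67 CPM, and PSMG4 18.2, 23.3 and 20.9 against 24.9, 21.3 and 25.3 CPM. In each of PSMG1 to PSMG4 the groups overlapped and no call was made. PSMG1, PSMG2 and PSMG3 were lower in vehicle 1, DOX 2 and DOX 3 than in each of the other 3 samples, and PSMG4 was not. The chaperones PSMD5, PSMD9 and PSMD10 of the cap had log2 fold changes of -0.06, 0.12 and 0.13, none called.

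An interaction term, fitted to the 12 samples together, compared the DOX effect of the lines. It called 7 proteasome genes with a smaller log2 fold change in LNCaP-AI than in DU-145 cells, where 3.76% of all 16800 genes were called in that direction, and 1 with a higher value, where 5.43% were. The 7 were PSMC4 (difference -0.75, SE 0.12), PSMD2 (-0.75, SE 0.17), PSMB3 (-0.63, SE 0.17), PSMB7 (-0.61, SE 0.16), PSMC3 (-0.52, SE 0.09), PSMD13 (-0.50, SE 0.12) and PSMD3 (-0.41, SE 0.11). The higher value was that of PSMB5 (0.57, SE 0.13, adjusted p = 0.022, edgeR), whose fall was smaller in LNCaP-AI cells. Of the 30 constitutive subunits other than PSMB5, 27 had the larger log2 fold change in DU-145 cells by the interaction fit. In the separate fits of the lines 29 did, with PSMA1 as the exception.
The difference was close to 0 for PSMB4 (0.02, SE 0.11), PSMD4 (-0.05, SE 0.10) and PSMC5 (-0.04, SE 0.14). The 8 calls of the interaction fell to 3 when DU-145 DOX 1, DOX 3, vehicle 1 or vehicle 3 was left out and to 2 without DU-145 DOX 2. They fell to 3 without LNCaP-AI DOX 2, DOX 3 or vehicle 3 and to 4 without vehicle 2, and were 13 without LNCaP-AI vehicle 1.

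In the vehicle samples most proteasome genes were lower in LNCaP-AI than in DU-145 cells. By edgeR's test 32 of 46 genes were called lower, where 30.2% of all 15628 genes tested were, and 1 was called higher, where 35.0% were. Their median log2 difference was -0.51, against 0.06 over all genes. The gene called higher was PSMD10, also known as the oncoprotein gankyrin, with 89.4 ± 13.5 CPM (SD, n = 3) in LNCaP-AI and 43.2 ± 3.15 CPM (SD, n = 3) in DU-145 cells. Its log2 difference was 1.05 (SE 0.13, adjusted p = 0.000372, edgeR). PSMB4 was among the genes furthest in the other direction, with 190 ± 10.3 against 499 ± 47.3 CPM (log2 difference -1.39, SE 0.10). PSMB9 (-2.44, SE 0.64) and PSMA6 (-2.27, SE 0.18) had larger differences from lower counts. Without LNCaP-AI vehicle 3 the genes called lower numbered 21 and those called higher 2, and without LNCaP-AI vehicle 1 those called higher numbered 3.
The 48 genes took a smaller share of the counts in every LNCaP-AI vehicle sample than in every DU-145 vehicle sample. Line and depth, and whatever else differed between the cultures, cannot be told apart here.

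Levels of different genes were compared per kb of the canonical transcript, in CPM per kb. PSMB4 was the most abundant constitutive subunit of the core in DU-145 vehicle samples at 498, followed by PSMA3 at 276 and PSMA7 at 243. In LNCaP-AI vehicle samples PSMA7 (270) and PSMB4 (221) led. PSMB5 stood at place 8 of 14 in vehicle samples of both lines, with 84.9 in DU-145 and 76.9 in LNCaP-AI cells. With DOX it stood at place 12 in DU-145 (35.0) and at place 11 in LNCaP-AI cells (45.8). In DU-145 DOX samples the subunits below it were PSMA2 (14.6) and PSMA6 (25.4).
PSMA1, PSMA2 and PSMA6 share exons on the same strand with longer readthrough genes, and how such reads were counted is not given in the sources used here. Their levels were 11.3 to 41.6 with vehicle in DU-145 cells, against a median of 190 for the other 11 genes, so their place in the order is uncertain. Excluding them and PSMC2, which has a like overlap, all 26 constitutive subunits other than PSMB5 were called higher in DU-145 cells. Pseudogenes are annotated for 18 of the 48 genes, and reads shared with them were treated in a way not given in the sources used here.

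**Figure D4:**
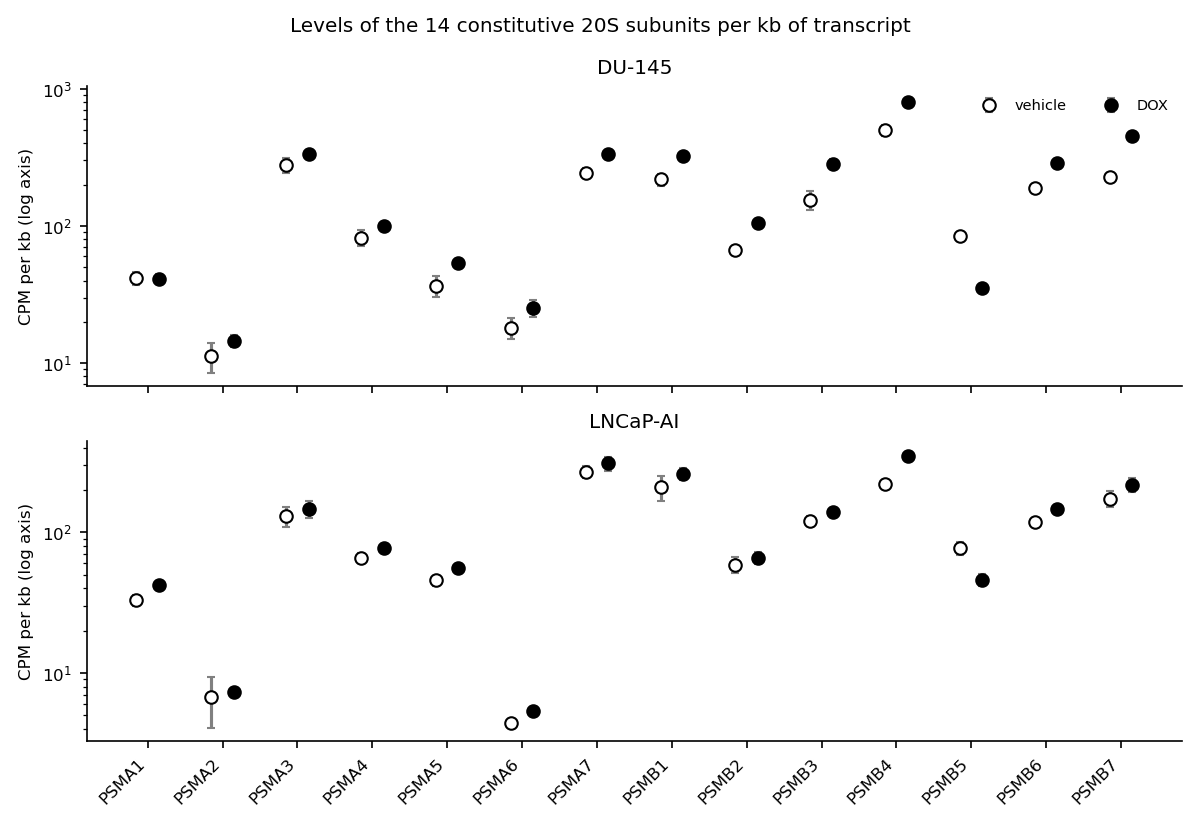
Levels of the 14 constitutive subunits of the core particle in CPM per kb of canonical transcript (log y axis) in vehicle (open) and DOX samples (filled), as mean ± SD (n = 3), in DU-145 (top) and LNCaP-AI cells (bottom). PSMB5 is the subunit with a lower DOX than vehicle level in both lines, and PSMA2 and PSMA6 lie lowest.

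The counts of genes that work with the proteasome stand beside the same shares of all genes, 26.3% called higher and 25.3% lower in DU-145 cells and 7.22% and 5.52% in LNCaP-AI cells. Of 12 proteasome-associated genes outside the symbol rule, 6 were called higher and 3 lower in DU-145 cells, and 1 higher and 2 lower in LNCaP-AI cells, with median log2 fold changes of 0.16 and 0.08. ADRM1, a ubiquitin receptor of the cap, rose in both lines, by 0.57 (SE 0.07) and 0.60 (SE 0.11) on the log2 scale. UCHL5, the deubiquitinase that ADRM1 holds, fell by 0.51 (SE 0.08) in DU-145 and by 0.74 (SE 0.12) in LNCaP-AI cells. IPO9, an importin that carries proteasomes into the nucleus, fell by 0.36 (SE 0.07) and by 0.72 (SE 0.11), and TXNL1, a redox protein bound to the cap, rose by 0.59 (SE 0.08) in DU-145 cells.
Of 6 ubiquitin and E1 genes, 3 were called higher and 1 lower in DU-145 cells (26.3% and 25.3% of all genes) and 1 lower in LNCaP-AI cells (5.52%), with medians of 0.21 and 0.14. UBB, which encodes a chain of ubiquitin, rose by 0.51 on the log2 scale (SE 0.08) in DU-145 cells. UBA6, an alternative E1 enzyme, fell by 1.00 (SE 0.09) in DU-145 and by 0.98 (SE 0.12) in LNCaP-AI cells.
Of 12 shuttle factors and members of the VCP complex, which extracts substrates for the proteasome, 9 were called higher and 2 lower in DU-145 cells (26.3% and 25.3% of all genes), and 1 and 1 in LNCaP-AI cells (7.22% and 5.52%), with medians of 0.28 and 0.03. VCP itself rose by 0.43 (SE 0.08) and 0.47 (SE 0.09). Its cofactors parted: in DU-145 cells UFD1 rose by 0.80 (SE 0.07) and NSFL1C by 0.81 (SE 0.08), whereas NPLOC4, the partner of UFD1, fell by 0.91 (SE 0.07). NPLOC4 also fell in LNCaP-AI cells, by 0.36 (SE 0.07).

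Of 12 transcription factors and enzymes of the proteasome recovery response, 6 were called higher and 4 lower in DU-145 cells (26.3% and 25.3% of all genes) and 1 higher in LNCaP-AI cells (7.22%), with median log2 fold changes of 0.20 and -0.06. NFE2L1, the gene of NRF1, had 277 ± 10.3 CPM with vehicle and 323 ± 21.9 CPM with DOX in DU-145 cells (SD, n = 3), a log2 fold change of 0.22 (SE 0.07, adjusted p = 0.0129, edgeR). In LNCaP-AI cells it was 0.32 (SE 0.15, adjusted p = 0.195, edgeR). The DU-145 call of NFE2L1 was not kept in every fit that left out a sample (adjusted p up to 0.0646, edgeR). NGLY1, which strips sugars from NRF1, rose by 0.33 (SE 0.08) in DU-145 cells, whereas DDI2, the protease that cuts it free, fell by 0.24 (SE 0.07). In LNCaP-AI cells the 2 had log2 fold changes of -0.03 and -0.20, not called. The DU-145 call of DDI2 was also not kept in every fit that left out a sample (adjusted p up to 0.07, edgeR).
Among small MAF genes in DU-145 cells, MAFK rose by 1.23 (SE 0.08) and MAFF by 0.99 (SE 0.10). NFE2L2, the gene of the related factor NRF2, fell by 0.71 (SE 0.07) in that line. KEAP1, which marks NRF2 for degradation, had 29.997 ± 3.38 CPM with vehicle and 15.9 ± 1.81 CPM with DOX in DU-145 cells (log2 fold change -0.91, SE 0.11, adjusted p = 1.01e-06, edgeR). In LNCaP-AI cells KEAP1 went the other way, from 106 ± 7.41 to 154 ± 9.25 CPM (0.54, SE 0.09, adjusted p = 0.0192, edgeR).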

How the data were processed

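RNA-seq was analysed for 12 samples, 3 per group, in 4 groups. The authors made libraries with the TruSeq stranded mRNA kit, used STAR for alignment (2.7.0 in the submitters' processing notes, beside CASAVA 1.8.2, DESeq2 1.24.0 and GRCh38.p7) and deposited unnormalized read counts for each gene. The counting tool, its strand setting and its handling of shared reads are not given in the sources used here. Ensembl identifiers were matched to symbols, positions and canonical transcript lengths from GENCODE release 44, which may differ from the authors' release.

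A gene entered a comparison with 10 or more counts in 3 or more of its samples. The test was the quasi-likelihood F-test of edgeR 4.0.16 (glmQLFit, glmQLFTest, R 4.3.3) after TMM scaling, with Benjamini-Hochberg adjustment over all genes tested and a threshold of 0.05. Standard errors are the log2 fold change over the square root of F. Comparisons were DOX with vehicle in a line, the 2 effects by an interaction over 12 samples, and the vehicle samples between lines. CPM values are TMM-normalized within a comparison, so those of the vehicle samples differ slightly between comparisons. Sample deviations used log2 CPM with 0.5 CPM added before the log. Ratios of subunits were tested by exact two-sided permutation over samples (scipy 1.17.1). Depth limits low counts, and 3 counts were taken as the floor, for counting error only, since the counts carry no molecular identifiers. No 2 samples of a group agreed within sampling noise (smallest chi-square per degree of freedom 2.38). The labels do not say whether samples are separate cultures, so p-values measure the spread between these samples, which may be technical. The steps were tested on simulated counts.

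The members, lists and alternatives were chosen with earlier results of these data known. Values per sample are given for the catalytic, inducible, activator and core assembly genes and, in each line, for up to 5 called members per direction, by adjusted p. From the other lists, the 3 called genes of lowest adjusted p per line and NFE2L1, NFE2L2, DDI2 and NGLY1 are named. PSMA6, PSMB2, PSMC5, PSMD10 and the levels per kb were added after their values were seen. So were the sets without PSMB5 and the ratios of PSMB5 to other constitutive beta subunits. Some genes that these rules name are not reported here. Alternatives were DESeq2 1.42.0, its size factors within edgeR, upper-quartile scaling, leaving out the filter, a filter at 1 CPM in 3 samples, a single fit over the 12 samples, a replicate block, the LNCaP-AI side as covariate and leaving out each sample.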

Additional observations from a re-analysis of the deposited data

Results flagged for a closer look

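The effect of DOX differed between the lines for 8 proteasome genes and 4 genes of the other lists reported here, by the interaction term of edgeR. As the log2 fold change in LNCaP-AI minus that in DU-145 cells, the values were -0.75 for PSMC4 (adjusted p = 0.00436), -0.75 for PSMD2 (0.0236), -0.63 for PSMB3 (0.0392), -0.61 for PSMB7 (0.0379), -0.52 for PSMC3 (0.00625), -0.50 for PSMD13 (0.0317), -0.41 for PSMD3 (0.0382) and 0.57 for PSMB5 (0.022). Among the other genes they were 1.49 for KEAP1 (0.000533), 0.59 for NPLOC4 (0.00374), -0.81 for MAFK (0.0221) and 0.53 for NFE2L2 (0.0354). KEAP1 was the gene called in opposite directions in the lines. With 3 samples a group, no single sample was tested as standing apart.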

How the results depend on the processing

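In DU-145 cells the genes called higher numbered 26 to 33 under every alternative run (33 as reported), with 27 to 32 when a sample was left out, and the median log2 fold change of 0.39 ran from 0.36 to 0.41 without a sample. The 2 genes called lower became 1 in the single fit of all 12 samples, which lost PSMB9, and stayed 2 without any sample. In LNCaP-AI cells the 7 calls became 14 with DESeq2, 12 with upper-quartile normalization, 4 with no filter, 15 in the single fit, 24 with the side as covariate and 0 with the replicate block (12 at an unadjusted p under 0.05), and 0 to 9 without a sample. The 1 gene called lower was not called under the replicate block (0, with 1 at an unadjusted p under 0.05), and there were 0 to 1 without a sample. The median of 0.19 moved to 0.28 with the side as covariate, to 0.29 and 0.26 within the sides, and ran from 0.17 to 0.26 without a sample. The 8 calls of the interaction became 5 with upper-quartile normalization and 0 with the replicate block (11 genes at an unadjusted p under 0.05), and 2 to 13 without a sample. Between the vehicle groups the 1 gene called higher became 2 with upper-quartile normalization, with no filter, with at least 1 CPM in 3 samples and in the single fit, and 1 to 3 without a sample; the 32 called lower became 21 with no filter and 21 to 28 without a sample. The causes were not tested. For the single genes and comparisons computed, no called direction reversed. Under alternatives 2182 values kept their side of the threshold, 202 lost a call and 55 gained one. Values not called could change direction among the 2182, as NGLY1 did in LNCaP-AI cells (-0.17 to 0.11 without a sample).

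Same-numbered vehicle and DOX samples deviated from their group means with correlations of 0.127, -0.0912 and 0.0763 in DU-145 and of -0.94, -0.812 and -0.84 in LNCaP-AI cells, so replicate numbers were not taken as pairs, and not every sample correlated best with its own number. In DU-145 cells the replicate block left 33 genes higher and 2 lower. Low counts limit PSMB8, PSMB9 and PSMB10, which reached at most 146 counts in a sample.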
